A study of Mus musculus with 32 samples.

Results

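HNF4A binding was mapped at 7 genes of gluconeogenesis in jejunal intestinal epithelial cells (IECs). The genes were Pcx, Pck1, Pck2, Fbp1, G6pc, Slc37a4 and Ppargc1a, taken as a list of enzymes, a transporter and a coactivator of this pathway. Peaks of 8 HNF4A ChIP-seq libraries that had 1 bp or more in common were joined into merged sites, and a site belonged to a gene when it lay in the gene body or within 20 kb on either side. This gave 56 sites of 45552 in all. HNF4A ChIP-seq measures where the transcription factor hepatocyte nuclear factor 4 alpha sits on chromatin. All mice were male C57BL/6J, 10 to 12 weeks old, and had received a high-fat meal (HFM) of egg yolk 2 hours before collection. The 4 GF+HFM mice were germ-free. The 4 CV+HFM mice had been raised germ-free and then colonized with a microbiota for 14 days. Each library was 1 mouse, and the preparations also held some crypt and mesenchymal cells.

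Gluconeogenesis makes glucose from lactate, amino acids and glycerol, and uses a small set of enzymes to bypass the irreversible steps of glycolysis. It is best known in liver and kidney, and enterocytes of the small intestine also express its key enzymes. HNF4A is a nuclear receptor that in liver activates genes of this pathway together with its coactivator, the product of Ppargc1a.

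The lists gave peak positions only, with no strength, so a site was described by the libraries that called it, by the bases under its peaks, and by its width percentile, the rank of the library's widest peak there among all peaks of that library (100 is the widest). GF+HFM lists held from 31061 to 36846 peaks. CV+HFM lists held 29345, 9206, 21033 and 4533 peaks in replicates 1 to 4. List length and condition therefore moved together, and their parts in any lower number of calls in CV+HFM cannot be told apart. Nor can fewer bound cells and weaker binding per cell in such bulk preparations.

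Sequences at the gene starts are shown first because the number of libraries calling them ran from 8 to 1. Each line gives the 200 bases at the middle of a merged site, read from the plus strand of mm9, in lower case because neither motif searched was found in them.
G6pc start site, chr11:101228733-101228932: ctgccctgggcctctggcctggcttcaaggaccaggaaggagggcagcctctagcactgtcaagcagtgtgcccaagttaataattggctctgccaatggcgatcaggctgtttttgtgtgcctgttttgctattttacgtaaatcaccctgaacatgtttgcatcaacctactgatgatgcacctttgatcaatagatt
Pck1 start site, chr2:172978275-172978474: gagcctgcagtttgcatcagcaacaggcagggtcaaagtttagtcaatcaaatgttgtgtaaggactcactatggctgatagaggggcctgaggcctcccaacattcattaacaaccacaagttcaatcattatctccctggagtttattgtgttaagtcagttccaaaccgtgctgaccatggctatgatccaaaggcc
Fbp1 start site, chr13:62989463-62989662: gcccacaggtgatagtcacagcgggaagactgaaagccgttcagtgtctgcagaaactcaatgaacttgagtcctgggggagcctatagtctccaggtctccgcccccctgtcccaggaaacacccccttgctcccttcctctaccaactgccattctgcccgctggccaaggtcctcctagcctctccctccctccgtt
Pck2 start site, chr14:56159021-56159220: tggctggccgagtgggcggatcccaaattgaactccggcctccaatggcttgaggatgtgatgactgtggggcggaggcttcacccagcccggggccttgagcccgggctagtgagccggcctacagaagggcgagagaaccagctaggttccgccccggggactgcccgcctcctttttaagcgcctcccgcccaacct

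These 4 sites were called in 8, 8, 7 and 1 of the 8 libraries. Both strands of every 200-base window were searched for CAAAGTCCA, the core of the HNF4A motif, without mismatch, and for DR1, the element AGGTCA repeated in the same direction with 1 base between, with at most 2 mismatches. The motifs resemble each other, so that 1 stretch may match both. The windows with a match at these genes are of interest because they were few, and the match is in capitals.
G6pc site 11.5 kb upstream, chr11:101217248-101217447: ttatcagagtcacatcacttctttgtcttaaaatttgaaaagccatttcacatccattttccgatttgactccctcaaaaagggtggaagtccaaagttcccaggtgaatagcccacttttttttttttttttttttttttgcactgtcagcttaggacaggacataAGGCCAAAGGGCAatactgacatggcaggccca
G6pc site 16.2 kb upstream, chr11:101212609-101212808: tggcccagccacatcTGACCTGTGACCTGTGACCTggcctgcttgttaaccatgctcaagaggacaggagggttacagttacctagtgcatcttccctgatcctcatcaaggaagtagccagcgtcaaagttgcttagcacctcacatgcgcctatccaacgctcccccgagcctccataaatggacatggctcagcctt
Fbp1 exon 5 site, chr13:62970397-62970596: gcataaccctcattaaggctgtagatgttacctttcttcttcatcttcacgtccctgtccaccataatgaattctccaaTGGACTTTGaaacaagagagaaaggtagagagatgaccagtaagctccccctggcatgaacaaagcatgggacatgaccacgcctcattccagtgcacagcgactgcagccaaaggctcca
Pcx intron 2 site, chr19:4568814-4569013: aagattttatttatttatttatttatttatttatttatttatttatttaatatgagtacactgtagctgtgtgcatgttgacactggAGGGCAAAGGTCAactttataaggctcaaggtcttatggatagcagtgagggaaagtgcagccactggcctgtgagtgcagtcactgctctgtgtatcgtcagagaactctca
Site at the Ccdc84 start, chr9:44226091-44226290: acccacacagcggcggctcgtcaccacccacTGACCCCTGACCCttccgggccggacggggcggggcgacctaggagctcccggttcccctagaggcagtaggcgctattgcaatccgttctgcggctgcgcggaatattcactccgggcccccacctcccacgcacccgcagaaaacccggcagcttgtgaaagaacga

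CAAAGTCCA was found in 1 of 56 windows (1.79%), and in 4.90% of the 45326 windows of all sites on assembled chromosomes. DR1 was found in 4 of 56 windows (7.14%), against 12.9% of all windows. The match nearest to DR1, with 0 mismatches, was a run of 3 AGGTCA elements on the minus strand 16.2 kb upstream of G6pc. That site was called in CV+HFM replicate 1 only. Among the 11 sites called in every library, only the G6pc site 11.5 kb upstream held a match, which had 2 mismatches to DR1. This was 9.09% of the 11, where 19.9% of the 3440 windows of all sites called in every library held either motif. Absence of a match says only that these letters were not in the window. The middle of a merged site can also miss the peaks. That of the Ppargc1a site 16.1 kb upstream, called in every library, lay under peaks of only 2 libraries.

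Of the 56 sites, 11 (19.6%) were called in all 8 libraries, where 7.56% of all merged sites were. They belonged to G6pc (3), Pck1 (2), Fbp1 (2), Ppargc1a (2), Pcx (1) and Slc37a4 (1), and Pck2 had none. A site lay over the annotated start of 6 genes, and only the starts of Pck1 and G6pc were called in every library. The median of the mean width percentiles was 43.0 at the 56 sites and 35.7 over all sites. The map of calls by distance from the gene start shows these patterns.

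**Figure D1:**
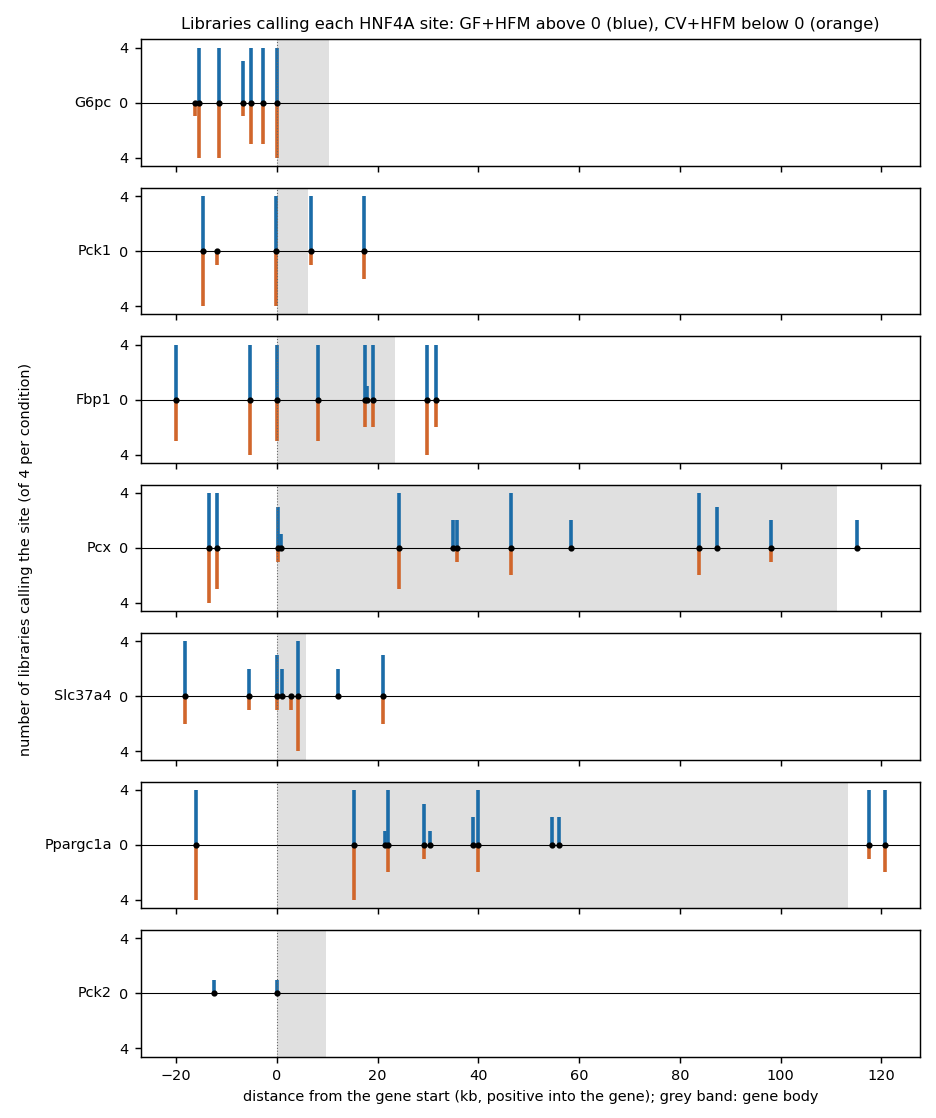
Merged HNF4A sites at the 7 genes, by distance of the site's middle from the gene start (kb, horizontal axis), with the number of GF+HFM libraries calling each site above 0 and of CV+HFM libraries below 0 (of 4 each). Lines of full height on both sides are the 11 sites called in all 8 libraries, and Pck2 has only 2 short lines in GF+HFM.

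Pcx encodes pyruvate carboxylase, which makes oxaloacetate from pyruvate in mitochondria, and spans chr19:4510472-4621752 on the plus strand. It had 13 sites, with 2 upstream, 1 over the start, 9 in introns and 1 downstream. The site over its start, chr19:4510468-4510764, was narrow. It was called in GF+HFM replicates 1, 2 and 3 at width percentiles of 43.9, 5.55 and 1.32 and in CV+HFM replicate 1 at 16.3. A site in intron 1, 0.801 kb from the start, was called in GF+HFM replicate 1 only. In contrast, the site at chr19:4496101-4497875 was called in all 8 libraries. Its width percentile was 99.8, 99.9, 99.8 and 99.4 in GF+HFM and 99.9, 96.2, 100 and 79.8 in CV+HFM. It was thus among the widest peaks of 7 libraries, and lower in CV+HFM replicate 4, which had it as 3 separate peaks. This site lay 13.5 kb upstream of Pcx but 708 bp from the start of another gene, 2010003K11Rik, within that gene's body.

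Pck1 encodes the cytosolic phosphoenolpyruvate carboxykinase, which turns oxaloacetate into phosphoenolpyruvate, and lies at chr2:172978549-172984774 on the plus strand. It had 5 sites. The start site, chr2:172977695-172979053, covered 1029, 775, 991 and 1359 bp in the GF+HFM libraries and 927, 311, 681 and 164 bp in the CV+HFM libraries. The groups overlapped in bases, with CV+HFM replicates 2 and 4 lowest. Its width percentile was 95.8 to 98.6 in GF+HFM and was 98.6, 90.3, 97.6 and 38.0 in CV+HFM, where replicate 4 had 2 separate peaks. The second site of this gene called everywhere, chr2:172963410-172964433, lay 14.6 kb upstream. Its width percentile ran from 79.6 to 98.6, and was lowest in CV+HFM replicate 2.

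The remaining Pck1 sites were called less widely. A site 230 bp past the gene's end, chr2:172985004-172985786, had a peak in every GF+HFM library but only in replicate 3 of CV+HFM. Fisher's exact test gave p = 0.143 for it. A site 17.2 kb from the start was called in 4 and 2 libraries, and a site 11.8 kb upstream only in CV+HFM replicate 3.

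Pck2 encodes the mitochondrial isoform of the same enzyme, at chr14:56159103-56168854 on the plus strand. It had 2 sites, each called in 1 GF+HFM library and in no CV+HFM library. The site over its start, chr14:56158988-56159253, was a peak of 266 bp in GF+HFM replicate 4 at width percentile 12.3. The other, 12.5 kb upstream, was a peak of 204 bp in GF+HFM replicate 3 at percentile 1.32 and lay closer to the start of Nrl (2640 bp). Thus the starts of the paralogs Pck1 and Pck2 were called in 8 and in 1 of the 8 libraries. The pair was set side by side as a description, without a test between genes.

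Fbp1 encodes fructose-1,6-bisphosphatase of liver, kidney and intestine, and lies at chr13:62966113-62989642 on the minus strand. It had 9 sites, of which 8 were called in all 4 GF+HFM libraries. The start site, chr13:62989357-62989768, was called in 7 libraries and was modest in width. Its percentile was 56.1, 42.4, 20.5 and 7.11 in GF+HFM and 52.4, 18.0 and 15.7 in CV+HFM replicates 1, 2 and 3, so that the conditions overlapped. A site 5.36 kb upstream, chr13:62994772-62995228, was called in all 8 libraries at percentiles from 5.01 to 73.8, the lowest in CV+HFM replicate 4.

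The widest site in the Fbp1 window, chr13:62959115-62960515, lay over the start of the neighboring gene Fbp2, which encodes the muscle isoform of the enzyme. It was called in all 8 libraries. Its percentile was 97.4, 96.0, 95.8 and 98.2 in GF+HFM and 97.6, 74.0, 93.7 and 87.6 in CV+HFM, with replicate 2 lowest. The start of Fbp2 therefore had more and wider calls than the start of Fbp1. Within the Fbp1 body, the sites in exons 4 and 5 had peaks in 4 libraries of GF+HFM but 2 of CV+HFM each, and the intron 1 site in 4 and 3.

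G6pc encodes the catalytic subunit of glucose-6-phosphatase, which releases free glucose at the end of the pathway, and lies at chr11:101228875-101239217 on the plus strand. Its 7 sites lay over the start or upstream of it, and none lay elsewhere in the gene body or downstream. The start site, chr11:101228234-101229430, covered 894, 726, 749 and 1197 bp in GF+HFM and 753, 536, 720 and 369 bp in CV+HFM. Its width percentile was 97.4, 96.6, 88.3 and 96.4 in GF+HFM and 96.3, 99.3, 98.2 and 96.5 in CV+HFM. Unlike the Pck1 start, it stayed near the top of its list in CV+HFM replicate 4, while its bases were lowest there.

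Upstream of G6pc, the sites at 11.5 kb (chr11:101216910-101217784) and 15.6 kb (chr11:101213029-101213613) were called in all 8 libraries. Their percentiles ran from 72.4 to 94.9 and from 61.9 to 94.4. The site 2.68 kb upstream, chr11:101225650-101226733, was wide, at percentiles from 86.0 to 98.7, in the 7 libraries that called it, and was missing from CV+HFM replicate 4. The site 5.07 kb upstream was called in the same number of libraries (4 and 3). A site at 6.68 kb had a peak in 3 libraries of GF+HFM plus replicate 2 of CV+HFM.

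Slc37a4 encodes the transporter that brings glucose-6-phosphate into the endoplasmic reticulum, where glucose-6-phosphatase acts. It lies at chr9:44205182-44211046 on the plus strand and had 8 sites, in a window that also takes in Hyou1, Rps25 and Ccdc84. The start site, chr9:44204851-44205442, was called in GF+HFM replicates 1, 2 and 4 at percentiles of 71.4, 63.2 and 67.9 and in CV+HFM replicate 3 at 3.63. A site over exon 2, whose near edge was 913 bp from the start, was called in 2 GF+HFM libraries. The site called in all 8 libraries lay over exon 6, chr9:44208932-44209771, at percentiles of 86.7, 93.4, 92.2 and 75.1 in GF+HFM and 80.5, 77.8, 87.1 and 49.5 in CV+HFM. CV+HFM replicate 4 had it as 2 separate peaks. For this gene, then, the site inside the gene was called more often than the one over its start.

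Of the other Slc37a4 sites, that at 18.2 kb upstream was 222 bp from the start of Hyou1, a chaperone gene, and was called in 4 and 2 libraries. The site 21.0 kb from the Slc37a4 start, past its end, lay over the Ccdc84 start, with 3 and 2 calls, and that at 12.0 kb lay in Rps25, a ribosomal protein gene, with 2 and 0.

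Ppargc1a spans chr5:51845488-51958964 on the minus strand. It had 12 sites and none within 1 kb of its start. The nearest sites to the start were those called in all 8 libraries, chr5:51943315-51944172 in intron 1 and chr5:51974102-51976125 at 16.1 kb upstream. The upstream site covered 1073, 757, 1656 and 2024 bp in GF+HFM and 1354, 272, 639 and 252 bp in CV+HFM, with the conditions overlapping through CV+HFM replicate 1. Its percentile was 84.6, 76.4, 99.7 and 99.8 in GF+HFM and 94.0, 83.1, 79.7 and 87.2 in CV+HFM. GF+HFM replicates 1 and 2 and CV+HFM replicate 3 had it as 2 separate peaks, and CV+HFM replicate 1 as 3. In intron 2, the sites at 39.9 kb and 22.0 kb from the start were wide, with mean percentiles of 88.3 and 86.3 over the libraries that called them. Both had peaks in every GF+HFM mouse, but only in replicates 1 and 3 of CV+HFM. Another 5 Ppargc1a sites had calls in GF+HFM alone, from 1 or 2 libraries each.

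**Figure D2:**
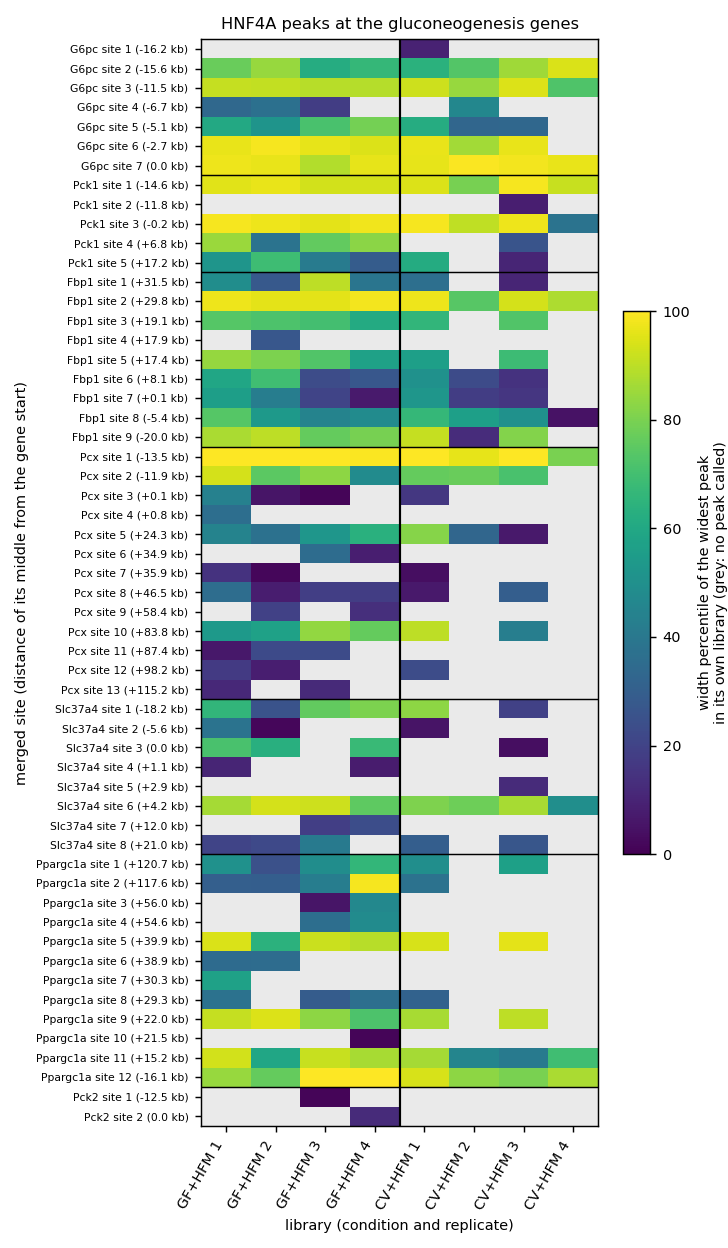
Width percentile of the widest HNF4A peak (color, 0 to 100) at each of the 56 merged sites (rows, with the distance of the middle from the gene start in kb) in each of the 8 libraries (columns), grey where no peak was called. The rows filled across all columns are the 11 sites called in every library, and the grey cells are most frequent in CV+HFM replicates 2 and 4.

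To ask whether colonization went with other calls at these genes, the conditions were compared site by site. In total 42 of 56 sites (75.0%) had calls from more mice of GF+HFM than of CV+HFM, 11 had equal numbers and 3 had more calls from CV+HFM. Over all merged sites, 86.5% had more calls from GF+HFM. Calls came from GF+HFM alone at 15 of the 56 sites (26.8%, against 35.6% of all merged sites). They came from CV+HFM alone at 3 sites (5.36%, against 2.67%), each in 1 library (at Pck1, G6pc and Slc37a4). No site of these genes was called in all 4 libraries of one condition and none of the other, the only pattern with p below 0.05 by Fisher's exact test (0.0286). Of all sites, 2.79% had this pattern, all with the calls in GF+HFM, and their smallest adjusted p (Benjamini-Hochberg over all sites, Fisher's exact test) was 0.824. The sites nearest to it were a Pcx site in intron 2, 87.4 kb from the start, called in 3 and 0 libraries, and sites called in 4 and 1 libraries past the ends of Pck1 and Ppargc1a.

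Each gene was then compared by the number of sites called in its window, with a two-sided exact permutation test (70 ways to relabel the mice) and adjustment over 14569 protein-coding genes with a site. G6pc had 6, 6, 6 and 5 sites in the GF+HFM libraries and 6, 6, 5 and 3 in the CV+HFM libraries. Pck1 had 4 sites in each GF+HFM library and 3, 2, 5 and 2 in CV+HFM. Fbp1 had 8, 9, 8 and 8 in GF+HFM and 8, 5, 8 and 2 in CV+HFM. The conditions overlapped for these 3 genes, and the low values were those of CV+HFM replicates 2 and 4 for Fbp1 and replicate 4 for G6pc.

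Pcx had 11, 10, 9 and 7 sites in GF+HFM and 8, 3, 5 and 1 in CV+HFM. Ppargc1a had 9, 7, 9 and 10 in GF+HFM and 7, 2, 5 and 2 in CV+HFM. Slc37a4 had 6, 5, 4 and 5 in GF+HFM and 4, 1, 5 and 1 in CV+HFM. Pcx and Ppargc1a came nearest to a separation, with CV+HFM minus GF+HFM differences of -5.00 and -4.75 sites and an exact permutation p of 0.0571 for each (adjusted p = 0.286). None of the 7 genes passed at an unadjusted p of 0.05, a threshold that 12.2% of all genes passed with fewer sites in CV+HFM and that 0 genes passed after adjustment. The smallest p these relabellings allow is 0.0286. Each list was also cut to its widest 4533 peaks, the length of the shortest list. The mean number of sites was then the higher in CV+HFM at G6pc and Fbp1 (by 0.50) and at Pcx and Slc37a4 (by 0.25). It did not differ at Pck1, and at Ppargc1a the difference was -0.25. None of these genes passed, with an exact permutation p of 0.429 or more.

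**Figure D3:**
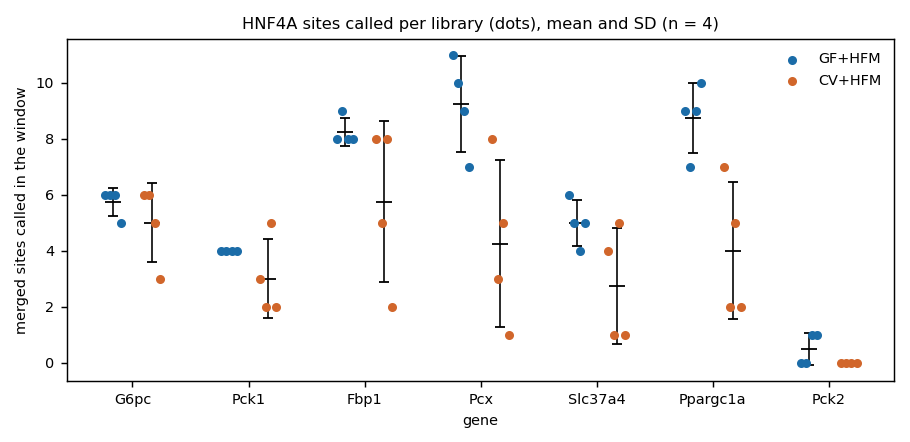
Number of merged HNF4A sites called in the window of each gene (vertical axis) in each library (dots, blue GF+HFM, orange CV+HFM), with the mean and SD of 4 libraries. The CV+HFM dots reach lower for 6 genes but overlap the GF+HFM dots, while Pck2 lies at 0 or 1 in every library.

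Bases under peaks were lower in CV+HFM for 4 of the 7 genes by the exact permutation test (Pck1, G6pc, Fbp1 and Slc37a4, unadjusted p = 0.0286 for each), where 35.8% of all genes with a site passed in this direction. No gene in the genome passed after adjustment, and the adjusted p of these 4 was 0.0798. Pck1 had 2692, 2138, 2822 and 3488 bp in GF+HFM and 1982, 569, 1989 and 462 bp in CV+HFM. G6pc had 3473, 3201, 3833 and 4446 bp in GF+HFM and 3075, 1672, 2607 and 863 bp in CV+HFM. All CV+HFM libraries lay below all GF+HFM libraries for both, with replicates 2 and 4 lowest and replicate 1 close to the GF+HFM range for G6pc.

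Fbp1 had 4216 ± 398 bp in GF+HFM (SD, n = 4) and 1772 ± 1461 bp in CV+HFM (SD, n = 4). The corresponding values for Slc37a4 were 2056 ± 399 and 762 ± 630 bp. For Pcx they were 4355 ± 469 and 1946 ± 1494 bp, and for Ppargc1a 5444 ± 1969 and 1841 ± 1817 bp. The last 2 genes overlapped between conditions, at an exact permutation p of 0.0571. With the same cut to 4533 peaks, none of the 4 genes passed, with exact permutation p from 0.0571 (Pck1 and G6pc) to 0.657 (Slc37a4). With peaks of at least 300 bp only, Pck1, Fbp1 and Slc37a4 no longer passed either (exact permutation p = 0.0571).

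Against the bases under all peaks of a library, the CV+HFM mean was the higher for 6 of the 7 genes, all but Pck2. The median difference was 116 bp per Mb over the 7 genes and -9.23 over all genes with a site. Among the lists given below, it was also high for enterocyte markers (111) and precursor enzymes (102). It was -18.9 for enzymes of the reversible steps and -7.89 for genes of the opposite direction. For regulators it was 0.338 and for isoforms 0.459. For markers of leukocytes, fibroblasts and endothelium it was -7.82, -28.3 and -30.6. The G6pc window held 255, 303, 239 and 242 bp per Mb of peak bases in GF+HFM and 289, 888, 400 and 1385 in CV+HFM. For Pck1 it was 197, 202, 176 and 190 in GF+HFM and 186, 302, 305 and 741 in CV+HFM. CV+HFM replicate 4, which had the shortest list, held the highest share of the 8 libraries at each of these 6 genes, and the part of list length in this was not tested. The direction of this share was reversed for Ppargc1a without CV+HFM replicate 4 (a difference of -34.4 bp per Mb). With 5 kb on either side it turned for Fbp1, Pcx and Ppargc1a, and with peaks of at least 300 bp for Fbp1, Slc37a4 and Ppargc1a.

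Only Pcx passed the exact permutation test on this share, with 337, 355, 301 and 231 bp per Mb in GF+HFM and 358, 610, 370 and 658 in CV+HFM (p = 0.0286, adjusted p = 0.296). It was higher in 4 of 4 CV+HFM libraries than in any GF+HFM library, although CV+HFM replicate 1 exceeded the highest of them by little. Of all genes, 3.45% passed in this direction and 6.20% in the other. Without CV+HFM replicates 2 and 4 the Pcx difference fell to 58.0 from 193 bp per Mb. With 5 kb in place of 20 kb on either side, which leaves out both sites upstream of Pcx, it was -63.9 bp per Mb (exact permutation p = 0.143). It no longer passed with peaks of at least 300 bp (415 bp per Mb, exact permutation p = 0.486) or with the widest 4533 peaks of each list (222 bp per Mb, exact permutation p = 0.0571).

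**Figure D4:**
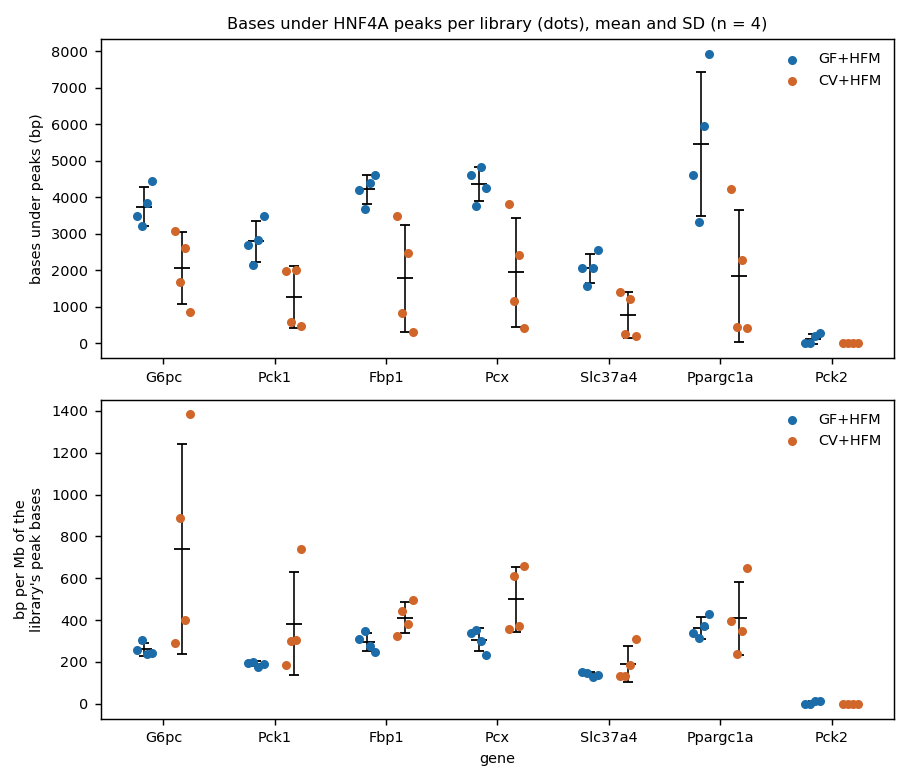
Bases under HNF4A peaks in the window of each gene (upper panel, bp) and the same per Mb of bases under all peaks of the library (lower panel), for each library (dots, blue GF+HFM, orange CV+HFM), with the mean and SD of 4 libraries. In the upper panel the CV+HFM dots lie below all GF+HFM dots for G6pc, Pck1, Fbp1 and Slc37a4, and in the lower panel the G6pc dots of CV+HFM spread from 289 to 1385.

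At the 11 sites called in every library, the bases under peaks were ranked within each library among the 3445 such sites of the genome and compared with limma. The difference is in SD units of the rank scores, CV+HFM minus GF+HFM. No member site passed at adjusted p of 0.05 or at an unadjusted p of 0.05, and of all 3445 sites 431 passed unadjusted and 4 (0.116%) after adjustment, all 4 narrower in CV+HFM. Leaving out 1 library gave from 0 to 34 passing sites in the genome (34 without CV+HFM replicate 1) and none at these genes. The site 15.6 kb upstream of G6pc differed by 0.88 ± 0.47 (SE, limma adjusted p = 0.43) and the G6pc start by 0.70 ± 0.35 (limma adjusted p = 0.412). The lowest was the intron 1 site of Ppargc1a, at -0.71 ± 0.40 (limma adjusted p = 0.436), and the Pck1 start was at -0.20 ± 0.31 (limma adjusted p = 0.809). Some of these values rested on 1 library. At the site 15.6 kb upstream of G6pc, the difference was 0.42 when CV+HFM replicate 4 was left out and 1.31 when replicate 1 of that condition was. In Ppargc1a intron 1 it was -0.35 when CV+HFM replicate 3 was left out, and at the Pck1 start it ran from -0.32 to -0.03, the lowest when CV+HFM replicate 1 and the highest when replicate 4 was left out.

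Other genes of glucose metabolism were counted from fixed lists. Of 13 enzymes of the reversible steps and of malate, aspartate and lactate conversion, 12 had a site in the window and 5 had a site called in all 8 libraries. Over all 22238 protein-coding genes, 65.5% had a site and 16.8% had one called in all 8 libraries, and longer genes have wider windows. Mdh2, a mitochondrial malate dehydrogenase, was the enzyme of this list with fewer sites in CV+HFM by the exact permutation test (means of 7 and 2.50, n = 4 each, p = 0.0286). Of all genes with a site, 12.2% passed in this direction. Ldha, the lactate dehydrogenase subunit of muscle type, had 3 sites called everywhere and a higher share of peak bases in CV+HFM (342 bp per Mb in GF+HFM against 625, n = 4 each, exact permutation p = 0.0286). Mdh2 had a lower share in CV+HFM (254 bp per Mb in GF+HFM against 182, n = 4 each, exact permutation p = 0.0286). Of all genes with a site, 3.45% passed with a higher share in CV+HFM and 6.20% with a lower one. Bases under peaks were lower in CV+HFM for 5 of the 12 with a site, at the same unadjusted p, where 35.8% of all genes with a site passed.

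Of 5 enzymes that feed precursors into the pathway, 4 matched by symbol (Gk did not), all 4 had a site and 3 had one called in all 8 libraries. For this and the next 2 lists, the shares over all protein-coding genes were 65.5% with a site and 16.8% with one called in all 8. Gpt, which makes pyruvate from alanine, was called at its start in all 8 libraries. The share of peak bases at Gpt was higher in CV+HFM (209 bp per Mb in GF+HFM against 518, n = 4 each, exact permutation p = 0.0286). Of 9 genes of the opposite direction, 8 had a site and 2 had one called everywhere, and the start of Pklr, the liver type pyruvate kinase, was called in all 8 libraries. Pfkm had fewer sites in CV+HFM (3.00 against 1.00, n = 4 each, exact permutation p = 0.0286). Of the 3 isoform genes, Fbp2, whose window overlaps that of Fbp1, had fewer sites in CV+HFM (6.50 against 3.25, n = 4 each, exact permutation p = 0.0286). The glucose-6-phosphatase isoform G6pc2 had no site, and G6pc3 had 2, neither called in every library. Of all genes with a site, 12.2% passed before adjustment with fewer sites in CV+HFM. For the share of peak bases, 3.45% passed with a higher and 6.20% with a lower share in CV+HFM.

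All 11 regulators of the pathway had a site, and 5 had one called in all 8 libraries, against 65.5% and 16.8% of all protein-coding genes. Ppargc1b, the paralog of Ppargc1a, had 17 sites, of which 3 were called everywhere, and Creb3l3, which encodes a liver and intestine transcription factor, had 13, also with 3 called everywhere. Creb3l3 and Klf15 had fewer sites in CV+HFM (11.0 against 6.50 and 5.50 against 2.25, n = 4 each, exact permutation p = 0.0286 for both). Of the 11 regulators, 1 had a higher and 1 a lower share of peak bases in CV+HFM at that p. None of these p-values held after adjustment over all genes. Before adjustment, 12.2% of all genes with a site passed with fewer sites in CV+HFM. By share of peak bases, 3.45% passed with a higher and 6.20% with a lower share in CV+HFM.

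HNF4A peaks near marker genes were counted as well, which does not measure the cell types of a preparation, since cells without HNF4A give no such peaks. Of 6 enterocyte markers, 5 had a site called in all 8 libraries and Sis had 3 sites, none called everywhere. Over all protein-coding genes, 16.8% had a site called in all 8. Lct and Sis had fewer sites in CV+HFM (n = 4 each, exact permutation p = 0.0286 for both). The share of peak bases was higher in CV+HFM for Vil1, Apoa4 and Alpi and lower for Sis, at the same p. None of these held after adjustment over all genes. Without adjustment, 12.2% of all genes with a site passed with fewer sites in CV+HFM, 3.45% with a higher share and 6.20% with a lower share. Of 6 markers of leukocytes, fibroblasts and endothelium, Ptprc and Col1a2 had no site and no other had a site called in every library. These are counts of peaks and not RNA levels, and RNA of the 7 genes was not analysed here.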

How the data were processed

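Peak lists of HNF4A ChIP-seq from 8 mice (4 each of GF+HFM and CV+HFM) were grouped by their labels. The other libraries of the series were not used here. Reads were aligned by the authors to mm9 (Bowtie2), and they called narrow peaks per mouse with MACS2 2.1.1.20160309 against input, without pooling replicates. Values in the deposited lists are positions (chromosome, start and end), with no strength, so depth is unknown.

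Starts were converted to positions counted from 1. Genes came from GENCODE M1. No peak ended beyond any of the 22 reference sequences of NCBIM37 (mm9). Sites touching a window by at least 1 bp were counted whole. Exons and introns were numbered in the transcript with the most exons. Calls were compared per site by Fisher's exact test, counts and bases per gene by exact permutation (scipy 1.17.1 in Python 3.11.15), and normal scores of width ranks by limma 3.58.1 in R 4.3.3. The tests were two-sided and Benjamini-Hochberg adjusted over all sites or genes, and were tested on simulated data. A gene of the pathway lists is not reported here. Named singly were sites within 1 kb of a start, called in all 8 libraries or called in 4 against 0, and the widest site of each gene. The further sites named were chosen after their values were seen. The genes, lists and tests were chosen with earlier results of these data known. Flanks of 5 and 50 kb, peaks of at least 300 bp, the widest 4533 peaks per list, at least 50% of a site covered, a replicate block, width percentiles, sites in at least 2 libraries per condition and leaving out each library were the alternatives.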

Additional observations from a re-analysis of the deposited data

Results flagged for a closer look

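In 42 groups of 4 libraries (3 measures of 7 genes in each condition), 2 values stood apart from the other 3 by Dixon's test, and chance gives about 1 in 20 groups. GF+HFM replicate 4 called 5 G6pc sites where the others called 6 each, since it lacked the site 6.68 kb upstream. GF+HFM replicate 2 called 9 Fbp1 sites where the others called 8 each, through a peak of 230 bp in intron 4. Both differ by 1 site among equal counts. No difference between groups was tested beyond the main comparison.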

How the results depend on the processing

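Depth is unknown, 1 input per condition served as control, and list length differed with condition, which limits any comparison of calls. With 7 libraries, the permutation tests cannot go below p = 0.0571, so losses of calls there say nothing about stability.

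Summed over the 7 genes, CV+HFM minus GF+HFM was -16.8 sites, -13086 bp and 1070 bp per Mb of peak bases, and no site was called in 4 against 0 libraries. Without 1 library these ranged from -20.5 to -12.2 sites, from -15870 to -10758 bp and from 534 (without CV+HFM replicate 4) to 1385 bp per Mb. From 0 to 1 sites were then called in all libraries of GF+HFM and none of CV+HFM (a Pcx site without GF+HFM replicate 4, a Ppargc1a site without CV+HFM replicate 1 and a Pck1 site without CV+HFM replicate 3). A 5 kb flank gave 226 bp per Mb. A 50 kb flank gave 2 sites called in 4 against 0 libraries, -26.8 sites and -18951 bp. Requiring 50% of a site to be covered gave -24.8 sites. The widest 4533 peaks of each list gave 1.25 sites, the reverse direction, and -4683 bp. The share then differed by 813 bp per Mb, in the same direction as with the full lists. Without CV+HFM replicates 2 and 4, chosen after seeing the data, the differences were -7.00 sites, -7243 bp and 275 bp per Mb. The causes were not tested.

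For single genes, the share of peak bases was reversed with a 5 kb flank for Fbp1 (-9.80 bp per Mb), Pcx (-63.9) and Ppargc1a (-50.3), with 50 kb for Pck2 (110), with peaks of at least 300 bp for Fbp1 (-120), Slc37a4 (-75.0, exact permutation p = 0.0286) and Ppargc1a (-201), with the widest peaks for Ppargc1a (-78.7) and without CV+HFM replicate 4 for Ppargc1a (from -34.4 to 103 without 1 library). A 50 kb flank brought Fbp1 past the test on the number of sites (-4 sites, exact permutation p = 0.0286). The widest peaks also reversed the number of sites at G6pc and Fbp1 (0.50 each) and at Pcx and Slc37a4 (0.25 each), and the calls at single Fbp1 and Pcx sites (-0.25 each, as a difference in the share of libraries, GF+HFM minus CV+HFM). Calls at the Ccdc84 start were reversed without CV+HFM replicates 2 and 4 (-0.25).

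The width rank of the Slc37a4 exon 6 site was reversed with sites called in at least 2 libraries of each condition (-0.0285), and ranged from -0.0727 to 0.32 without 1 library (below 0 without replicate 4 of either condition). With the replicate number as a block, 0 of 11 sites passed in limma, as without it. At unadjusted p below 0.05 in limma, 2 of the 11 passed without CV+HFM replicate 1 (726 of all 3445 did), 1 without CV+HFM replicate 4 (344 of 3445) and 0 otherwise without 1 library. Of sites called in at least 2 libraries of each condition, 2 of 29 at these genes passed unadjusted, as did 1477 of 18492 in all. They lay past the end of Fbp1 (-1.30) and in Ppargc1a intron 1 (-0.69). The site past the end of Fbp1 was called in 6 libraries and lay in the body of Fbp2, 1177 bp from the Fbp2 start. The replicate numbers name different mice, and deviations of same-numbered libraries correlated at 0.0322, 0.102, -0.0737 and 0.110, so the pairing was not used.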
